A study of Mus musculus with 2 samples.

Results

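The cells described here are osteoclast lineage cells of the early rib callus, 429 of 10747 cells in the control library and 264 of 10512 cells in the *Smo* cKO library, or 693 of 21259 cells in all. They were chosen by their own transcripts, as myeloid cells (at least 3 UMIs of *Tyrobp* and *Fcer1g* together) in which the mean z-score of *Acp5*, *Ctsk*, *Atp6v0d2* and *Mmp9* was over 0.3 and above the scores of 4 other myeloid gene sets. A UMI is a tag that counts 1 captured mRNA molecule. The levels of these 4 genes, and every difference between the 5 sets of cells that follows from the choice, are given as a description.

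The tissue was callus at 4 days post injury (dpi), in which a 3 mm piece of a rib had been removed from mice aged 8 to 12 weeks. The control animals were *Sox9*:CreER;*R26*:tdT;*Smo*f/+ and the *Smo* cKO animals were *Sox9*:CreER;*R26*:tdT;*Smo*f/f, so that both carried the CreER transgene, the tdTomato reporter and at least 1 floxed *Smo* allele. Both received 3 tamoxifen injections, from 7 to 5 days before injury. Calluses of 3 animals per genotype were digested, passed through a 40 micron filter and pooled, which gave 1 library per genotype, with 1.05e+08 (control) and 1.13e+08 (*Smo* cKO) UMIs. There is thus no replicate of either genotype, no difference between the libraries was tested, and the 95% intervals below cover counting error only. Genotype, the pooled animals and the library preparation cannot be told apart.

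Osteoclasts are the cells that resorb bone. They form when precursors of the monocyte and macrophage lineage, exposed to M-CSF (*Csf1*) and RANKL (*Tnfsf11*), switch on the transcription factor NFATc1 and fuse into large multinucleated cells. A mature osteoclast attaches to bone through the integrin αvβ3, pumps protons and chloride into the sealed space beneath it, and digests the exposed matrix with cathepsin K and MMP9. In a healing bone, cells of this lineage resorb calcified matrix as the callus is replaced.

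*Smo*, which encodes the Hedgehog signal transducer deleted in the *Smo* cKO animals, was nearly absent from the osteoclast lineage cells. It had 10 UMIs in 9 control cells and 13 UMIs in 13 *Smo* cKO cells (2.40 and 3.68 CPM, UMIs per 1000000 UMIs of the same cells). The CreER is driven by *Sox9*, a gene of the skeletal lineage, and the tdTomato reporter had 1 and 3 UMIs in these cells (0.240 and 0.849 CPM). It was also sparse in connective tissue cells, with 24 and 38 UMIs in 3573 and 2235 cells (0.638 and 1.43 CPM). In connective tissue cells of the same libraries, defined by collagen transcripts and no *Tyrobp* or *Fcer1g* UMI, *Smo* was counted with 775 UMIs in control and 398 UMIs in *Smo* cKO cells (20.6 and 14.9 CPM, log2 ratio −0.46, interval −0.64 to −0.29).

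The osteoclast lineage cells were deeply sampled. Their median UMI number was 8958 (control) and 11316 (*Smo* cKO), compared with 2491 and 3407 in *Ccl8* *Mrc1* *C1q* macrophages, 2655 and 3181 in *Spp1* *Gpnmb* macrophages and 2676 and 3454 in MHC class II dendritic-like cells, the 3 other sets used for comparison. Thinned to 1000 UMIs, the median osteoclast lineage cell had 531 and 549 detected genes, inside the range of the comparison sets in the control (510 to 545) and above it in the *Smo* cKO library (517 to 531). Detected genes numbered over 2000 in 69.7% of control and 84.1% of *Smo* cKO members. In total, the sums analyzed here hold 4159060 and 3532339 UMIs. Of the barcodes, 613 occurred in both libraries, and 9 members of each library carried such a barcode, of which 1 was a member in both.

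The score that chose the members ran on across its threshold. Such values describe the choice and cannot show whether the members form a separate type. The median score was 1.86 (control) and 2.04 (*Smo* cKO), and the highest was 4.17 and 4.25. Just inside the threshold, the lowest member scored 0.302 (control) and 0.309 (*Smo* cKO), while the nearest cells outside it scored 0.289 and 0.286. Between 0.3 and 0.4 lay 20 and 12 members, and between 0.2 and 0.3 lay 17 and 11 cells that were left out. *Acp5*, the tartrate-resistant acid phosphatase by which osteoclasts are stained, was at 3328 and 3643 CPM and was found in 98.1% and 99.6% of members. *Ctsk*, cathepsin K, was at 3828 and 4190 CPM. *Atp6v0d2*, a proton pump subunit linked to cell fusion, was at 472 and 585 CPM, and *Mmp9* was at 1918 and 1712 CPM. Thinned in the same way, *Mmp9* was found in 46.1% and 41.4% of members and in 35.3% and 40.6% of the neutrophil set. All 4 genes were detected in 265 control cells (61.8%) and 169 *Smo* cKO cells (64.0%). Genes of the other sets were scarce in single members. The median member had 0 UMIs of each of *Ccl8*, *Mrc1*, *C1qa*, *Gpnmb*, *H2-Ab1*, *Cd74* and *S100a8*, and 1 (control) or 3 (*Smo* cKO) UMIs of *Spp1*.

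Markers that the choice did not use were higher in members for most but not all of the list. Of 10 such markers, 8 (*Dcstamp*, *Ocstamp*, *Nfatc1*, *Oscar*, *Itgb3*, *Tnfrsf11a*, *Ckb* and *Car2*) were at least 2-fold higher in members than in the 3 comparison sets pooled, in both libraries, as were 12.2% of all genes compared. The other two were at or near 0. *Calcr*, the calcitonin receptor of mature osteoclasts, had 1 UMI in the control and none in the *Smo* cKO library (3 counts would be 0.849 CPM there). *Siglec15*, a receptor involved in osteoclast fusion, had 1 and 4 UMIs. The pooled comparison does not show sharing with a single set, which for *Dcstamp* and dendritic-like cells is given below.

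The promoters of *Oscar* and *Acp5* are shown because they were the windows, of those searched for the leading genes, that held a motif of each of NFATc1 and MITF, the factors known to drive both genes. *Acp5* is a gene of the choice, and *Nfatc1* and *Mitf* are described below. The 250 bases before the RefSeq start site of each gene (GRCm38.p6, minus strand, written 5′ to 3′ along the gene) are given with matches of the NFAT core TGGAAA and the MITF E-box CATGTG, searched on both strands, in capitals. The *Oscar* window is chr7:3616158-3616407 and the *Acp5* window is chr9:22130599-22130848, which belongs to the most downstream of 3 *Acp5* start sites.
Oscar: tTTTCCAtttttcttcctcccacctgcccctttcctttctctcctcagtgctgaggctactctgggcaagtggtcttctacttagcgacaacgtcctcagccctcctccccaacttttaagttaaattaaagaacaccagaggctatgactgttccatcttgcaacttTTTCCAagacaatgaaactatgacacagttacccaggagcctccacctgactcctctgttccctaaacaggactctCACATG
Acp5: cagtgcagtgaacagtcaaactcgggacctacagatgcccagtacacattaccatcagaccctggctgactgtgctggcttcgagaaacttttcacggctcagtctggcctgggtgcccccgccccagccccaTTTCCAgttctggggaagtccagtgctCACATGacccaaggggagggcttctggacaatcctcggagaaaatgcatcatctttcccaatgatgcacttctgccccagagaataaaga
The NFAT core lies 249 to 244 and 82 to 77 bases before the *Oscar* start, and the E-box directly before it, at 6 to 1 bases. In *Acp5* the core lies 117 to 112 and the E-box 90 to 85 bases before the start. Of 32851 mouse promoter windows of this length, 18.6% hold the core, 12.3% the E-box and 2.68% both. Among the 4 score genes, *Dcstamp*, *Oscar*, *Car2* and the 15 leading genes named below, 22 genes in all, 13 were in the table with 16 windows, of which 25% held the core and 12.5% the E-box. The core also occurs in the windows of *Chchd10* and *Bdh2*, and the window of *Ctsk* holds neither motif. Such matches are letters only.

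Outside the 4 score genes, the 15 genes with the highest ratio over the pooled comparison sets, taken in the library where it was smaller and with 10 CPM added to both sides, were *Mt3*, *Chchd10*, *Slc9b2*, *Bdh2*, *Ckb*, *Nfatc1*, *Kbtbd11*, *Itgb3*, *Nudt22*, *Tfrc*, *Ppargc1b*, *Cyp2s1*, *Xpr1*, *Ocstamp* and *Pstpip1*. *Nfatc1*, the master regulator of osteoclast differentiation, was at 415 CPM (control) and 361 CPM (*Smo* cKO), against 39.5 and 33.2 CPM in the pooled sets (10.5-fold and 10.9-fold). *Mt3*, a metallothionein, was at 267 and 522 CPM against 5.40 and 2.64 CPM. *Slc9b2*, a sodium and proton exchanger induced in osteoclasts, was 37.0-fold and 77.4-fold higher. These levels were far apart in both libraries. *Ckb*, the brain-type creatine kinase that buffers ATP in bone-resorbing cells, was at 753 and 1016 CPM against 66.5 and 93.4 CPM. *Ppargc1b*, a coactivator of mitochondrial biogenesis, was at 95.9 and 80.4 CPM against 2.46 and 3.26 CPM. *Tfrc*, the transferrin receptor through which iron enters these mitochondria-rich cells, was at 130 and 99.1 CPM against 7.86 and 5.12 CPM. Thinned to 1000 UMIs per cell, *Nfatc1* was found in 35.6% (control) and 32.7% (*Smo* cKO) of members and in 2.05% to 4.32% of the cells of each comparison set; unthinned, it was found in 90.4% and 91.7% of members. As a background level, *Nfatc1* was found in 0 of 16 (control) and 3 of 71 (*Smo* cKO) thinned lymphoid cells, at unthinned median depths of 3338 and 2160 UMIs. Connective tissue cells give no such level, since they had 111 and 97.3 CPM of *Nfatc1*. It was found in 10.8% and 8.43% of them when thinned.

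On GRCm38 (GENCODE vM21), *Ckb* lies on chromosome 12 from 111669361 to 111672338, *Mt3* on chromosome 8 from 94152607 to 94154146 and *Itgb3* on chromosome 11 from 104608000 to 104670476. All are protein-coding, and UMIs were counted per gene, so that exons and isoforms were not separated.

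**Figure D1:**
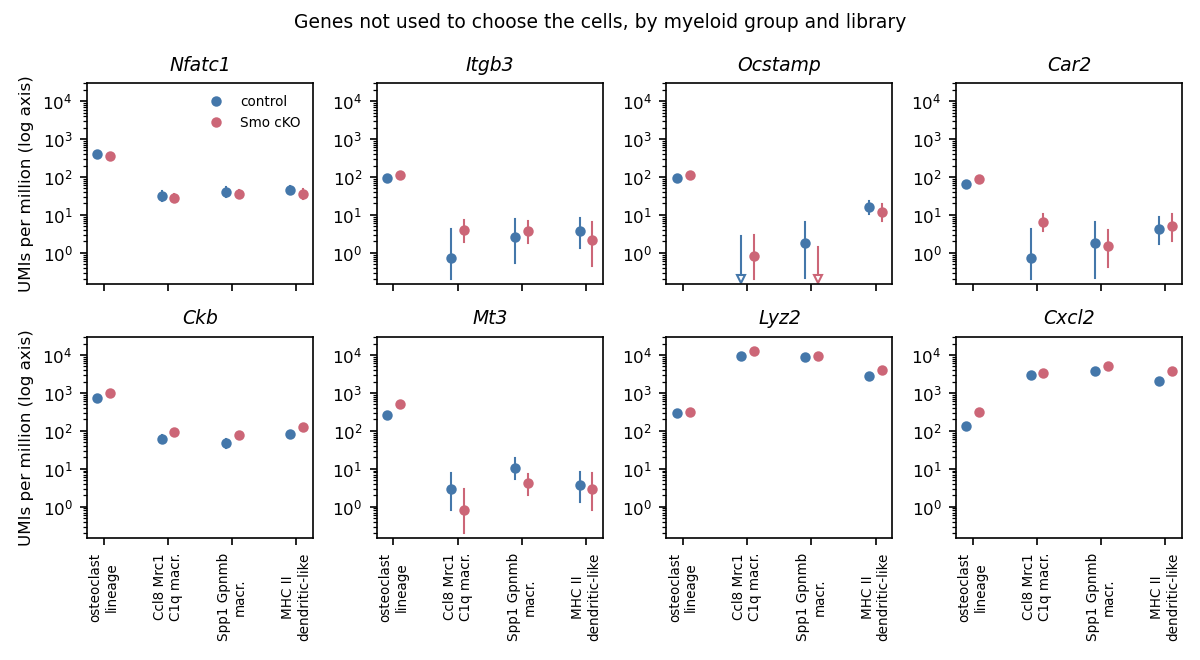
CPM (log axis) of 8 genes not used in the choice of cells, in osteoclast lineage cells, 2 macrophage sets and dendritic-like cells of the control (blue) and *Smo* cKO (red) library; bars are 95% Poisson intervals and open triangles mark 0 UMIs. *Nfatc1*, *Itgb3*, *Ocstamp*, *Car2*, *Ckb* and *Mt3* are higher in osteoclast lineage cells than in the other sets in both libraries, and *Lyz2* and *Cxcl2* are lower.

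Of 74 osteoclast genes outside the choice, in lists for fusion, acid secretion, attachment, signalling and transcription, 53 reached 50 CPM in at least 1 set of cells, 27 were higher in members by 2-fold or more, and 5 were lower to that extent, in both libraries. In members alone, 49 reached 50 CPM, and for the others the minimum itself favoured a lower ratio. Over all 2986 genes compared, the shares were 12.2% higher and 16.6% lower. The list had a median log2 ratio of 1.04 (control) and 1.24 (*Smo* cKO), with 0.068 and 0.19 over all genes. Against single sets, 23 list genes were higher and 5 lower than in *Spp1* *Gpnmb* macrophages (10.4% and 14.3% of all genes), 26 and 5 than in *Ccl8* *Mrc1* *C1q* macrophages (13.2% and 18.3%), and 27 and 6 than in dendritic-like cells (14% and 15.8%). Since the cells were cut from the same profiles, this is a description with no test.

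Genes of acid secretion were mostly higher in members. Of its 17 genes at 50 CPM, 13 were at least 2-fold higher in both libraries and none was lower (12.2% and 16.6% of all genes). *Tcirg1*, the osteoclast a3 subunit of the vacuolar proton pump, was at 237 and 230 CPM against 91.8 and 97.9 CPM. *Atp6v1b2*, a cytosolic subunit, was 4.19-fold and 4.29-fold higher, and *Atp6v1d* was 3.53-fold and 4.14-fold higher. *Car2*, the carbonic anhydrase that supplies the protons, was at 63.7 and 89.5 CPM against 2.46 and 4.19 CPM, and *Slc4a2*, the bicarbonate and chloride exchanger, was 5.56-fold and 5.58-fold higher. *Snx10*, needed for vesicle traffic to the ruffled border, was 4.93-fold and 5.28-fold higher. *Clcn7*, the chloride channel partner of the pump, was 1.54-fold higher (control) and 2.40-fold (*Smo* cKO). *Atp6v0a1*, another a subunit, was under the 50 CPM minimum and lower in members, at 4.57 and 2.27 CPM against 38.1 and 28.1 CPM.

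Of 10 attachment genes at 50 CPM, 5 were at least 2-fold higher in both libraries and none was lower, and of 7 fusion genes 3 were higher and 1, the sheddase *Adam8* (0.301-fold and 0.281-fold), was lower. Over all genes 12.2% were higher and 16.6% lower, so that 1 lower fusion gene in 7 is near the background. The fusion list summed to 747 and 837 CPM in members, below the 1135 and 1038 CPM of *Spp1* *Gpnmb* macrophages. It was at 564 and 567 CPM in *Ccl8* *Mrc1* *C1q* macrophages and at 744 and 790 CPM in dendritic-like cells. *Itgb3*, the integrin β3 chain, was at 91.4 and 116 CPM against 2.46 and 3.57 CPM, while its partner *Itgav* was 2.19-fold and 2.96-fold higher. *Src*, the kinase of the ruffled border, was 6.55-fold and 6.84-fold higher and *Pstpip1*, a podosome adaptor, 7.60-fold and 7.24-fold. *Cd44*, *Pxn*, *Gsn* and *Fermt3*, which other myeloid cells also use, lay between 0.938-fold and 1.26-fold. Of the fusion genes, *Ocstamp* was at 92.6 and 110 CPM against 6.87 and 2.79 CPM and *Dcstamp* at 65.9 and 79.3 CPM against 10.6 and 8.84 CPM. *Ocstamp* was not confined to the members, since dendritic-like cells had 16.2 and 11.9 CPM of it. *Dcstamp* was not confined to them either. In cells thinned as above, *Dcstamp* was found in 7.03% (control) and 7.60% (*Smo* cKO) of members and in 3.29% and 4.01% of dendritic-like cells. Against dendritic-like cells alone, 2 fusion genes in place of 3 were at least 2-fold higher in both libraries. *Myo10*, a motor of filopodia, the third of the higher fusion genes, was 6.64-fold and 6.99-fold higher, *Cd9* was 1.11-fold and 1.17-fold, and *Cd47* was 0.501-fold and 0.613-fold.

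Of 7 receptor and signalling genes at 50 CPM, 1 (*Tnfrsf11a*) was at least 2-fold higher and 1 (*Trem2*) lower in both libraries, near the shares of all genes (12.2% and 16.6%). Of 12 transcription factor genes, 5 were higher and 3 lower. *Csf1r*, the M-CSF receptor, was at 414 and 317 CPM against 383 and 327 CPM. *Tnfrsf11a*, the RANKL receptor RANK, was 2.71-fold and 2.34-fold higher (81.0 and 68.5 CPM). *Oscar*, the costimulatory collagen receptor whose promoter is printed above, had 97 and 128 UMIs in members and 1 UMI in the pooled sets of each library. *Trem2*, a receptor that signals through DAP12, was 0.273-fold and 0.174-fold. Beside *Nfatc1* and *Ppargc1b*, the higher factors were *Fosl2* (2.59-fold and 2.49-fold), *Mitf* (2.66-fold and 2.95-fold) and *Jdp2* (68.8 and 52.9 CPM against 19.6 and 13.3 CPM), of the AP-1 and MITF families. *Fos*, required for the lineage, was at 221 and 224 CPM, 0.579-fold and 0.556-fold. Among the lower factors, *Irf8* and *Id2* are known to hold osteoclast formation back. *Irf8* was at 13.9 and 7.64 CPM against 106 and 121 CPM, and *Id2* was at 184 and 203 CPM against 569 and 619 CPM. *Irf8* was under 50 CPM in members, so that the minimum itself favoured a lower ratio. *Bcl6*, of the same kind, had 6 and 9 UMIs.

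Of 12 listed genes of energy metabolism, all at 50 CPM, 7 were at least 2-fold higher in both libraries and 1 was lower (12.2% and 16.6% of all genes). The sum of the 12 genes was 11349 and 11879 CPM in members against 4863 and 5024 CPM. *Cox5a*, *Atp5b*, *Uqcrc1* and *Sdhb*, parts of the respiratory chain and ATP synthase, were 2.79-fold to 3.90-fold higher, and *Cycs*, cytochrome c, was 3.97-fold and 4.54-fold higher. The cytochrome oxidase genes *Cox4i1* (1.88-fold and 1.90-fold) and *Cox6c* (2.14-fold and 1.97-fold) did not reach 2-fold in both libraries. *Slc6a8*, the creatine transporter, was 3.03-fold and 3.36-fold higher. *Slc2a1*, a glucose transporter, was the lower gene (0.392-fold and 0.431-fold), and the glycolytic enzyme *Pkm* was 0.969-fold and 1.08-fold.

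Proteases other than *Ctsk* and *Mmp9*, and their inhibitors, were listed as well. Of 13 such genes at 50 CPM, none was at least 2-fold higher in both libraries and 7 were lower. In members, 10 of the 13 reached 50 CPM, and for the others the minimum itself favoured a lower ratio. Over all genes 12.2% were higher and 16.6% lower, so that the absence of higher genes among 13 is near the background. *Ctsb* was at 586 and 703 CPM against 3080 and 4109 CPM, *Ctss* at 176 and 170 CPM against 1507 and 2113 CPM, and *Ctsd* at 345 and 392 CPM against 1644 and 2252 CPM. *Mmp14*, the membrane-bound metalloproteinase, was 1.73-fold and 1.83-fold higher. *Mmp13* and *Mmp12* had 44 and 21, and 10 and 15 UMIs in members.

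Of 9 macrophage markers at 50 CPM, 8 were at least 2-fold lower in members in both libraries. Only 4 of the 9 reached 50 CPM in members. The others entered through the comparison sets alone, so that the minimum itself favoured a lower ratio. *Lyz2*, lysozyme, was at 294 and 307 CPM against 6546 and 9607 CPM, *Apoe* at 517 and 510 CPM against 11266 and 17578 CPM, and *C1qb* at 41.1 and 42.5 CPM against 1842 and 2563 CPM. *Cd68*, a lysosomal glycoprotein that osteoclasts share with macrophages, was 1.17-fold and 1.04-fold. Of 13 cytokine and inflammatory genes, 10 were at least 2-fold lower, among them *Il1b* (4.33 and 10.2 CPM against 360 and 541 CPM), *Ccl4* (9.14 and 20.7 CPM against 743 and 1334 CPM) and *Cxcl2* (132 and 317 CPM against 2902 and 4172 CPM). In members, 6 of the 13 reached 50 CPM. The others, *Il1b* and *Ccl4* among them, entered through the comparison sets alone, which favoured a lower ratio in the same way. *Ccl9*, a chemokine that osteoclasts are known to secrete, was the 1 higher gene, at 1024 and 1565 CPM against 436 and 430 CPM. *Ccl2* (0.412-fold and 0.927-fold) and *Nfkbia* (0.508-fold and 0.599-fold) were not 2-fold lower in both libraries. Among 12 genes for factors by which osteoclasts signal to bone-forming cells, 4 reached 50 CPM, none was at least 2-fold higher and 1, *Tgfb1* (30.1 and 39.9 CPM against 128 and 140 CPM), was lower. *Tgfb1* was under 50 CPM in members, so that the minimum itself favoured a lower ratio. Over all genes 12.2% were higher and 16.6% lower, so that both counts for these factors are near the background. *Sema4d* was at 130 and 112 CPM (1.70-fold and 1.69-fold) and *Pdgfb* at 89.7 and 57.5 CPM (1.85-fold and 1.88-fold).

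Transcripts of other cell types were low in members, apart from those of connective tissue and blood. Of 7 neutrophil markers there were 16 and 38 UMIs in all, with *Lcn2* (control) and *Camp* (*Smo* cKO) the most abundant and *Mmp8* and *Ltf* at 0 in the control. The 7 dendritic markers had 13 and 5 UMIs, with *Flt3*, *Cd209a* and *Xcr1* at 0 in both libraries. The 6 monocyte markers were at 26.7 and 77.6 CPM, of which *Plac8* held most, and *Chil3* was at 0 in the control. T and NK, B, and mast or basophil markers had at most 13 UMIs per library. The osteoblast list was at 22.6 and 22.1 CPM, the muscle list at 33.9 and 55.5 CPM and the endothelial list at 20.4 and 12.7 CPM. Hemoglobin and *Alas2* transcripts summed to 1335 and 1594 CPM, below the 3366 and 4406 CPM of the pooled sets. The 9 connective tissue markers summed to 1564 CPM (control) and 2424 CPM (*Smo* cKO), led by *Sparc* (710 and 1173 CPM), against 2086 and 2128 CPM in the pooled sets and 18621 and 20001 CPM in connective tissue cells.

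A share of members held transcripts of dividing cells. At least 3 UMIs of *Top2a* and *Mki67* together were found in 83 of 429 control members (19.3%, exact interval 15.7% to 23.4%) and 58 of 264 *Smo* cKO members (21.97%, 17.1% to 27.5%), against 0.629% to 2.67% of the cells of the comparison sets. With each cell thinned to 1000 UMIs and the 15 proliferation genes counted together, the shares were 18.5% (14.9% to 22.5%) and 22.4% (17.5% to 28.0%) in members and 3.09% to 7.21% in the other sets. *Top2a*, the topoisomerase of dividing cells, was at 105 and 112 CPM in members against 26.8 and 36.1 CPM. Of 6 proliferation genes at 50 CPM, 3 were at least 2-fold higher, beside 12.2% of all genes. *Birc5* (survivin) was 3.07-fold and 2.96-fold higher and *Ube2c*, of the anaphase-promoting complex, 3.69-fold and 3.70-fold. Between the genotypes the intervals of these shares overlapped. Doublets were not removed, and their part in these shares was not tested.

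Members also differed among themselves. They were divided by how many of the 4 score genes had a UMI after thinning to 1000 UMIs, into 0 or 1 (117 control and 80 *Smo* cKO cells), 2 (113 and 59), 3 (121 and 71) and 4 (76 and 53), with 2 control and 1 *Smo* cKO cell under 1000 UMIs left out. From the lowest to the highest of these groups, *Ckb* went from 94.8 to 1751 CPM (control) and from 107 to 2279 CPM (*Smo* cKO). *Itgb3* went from 11.2 to 219 CPM and from 11.2 to 272 CPM. *Ocstamp* went from 15.3 to 205 CPM and from 21.5 to 244 CPM, *Dcstamp* from 11.2 to 134 CPM and from 20.4 to 174 CPM, and *Car2* from 15.3 to 135 CPM and from 15.3 to 197 CPM. *Mt3* went from 5.09 to 865 CPM and from 65.4 to 1091 CPM. These 6 genes had their highest level in the cells with all 4 score genes, in both libraries. *Src* did not follow this order, at 87.6, 120, 87.9 and 152 CPM in the control and at 69.5, 88.1, 95.8 and 83.1 CPM in the *Smo* cKO library. Regulators and receptors of the lineage are given by the same groups. *Nfatc1* lay between 391 and 427 CPM in the 4 control groups and between 304 and 394 CPM in the *Smo* cKO groups. *Ppargc1b* lay between 85.6 and 108 CPM and between 68.5 and 97.2 CPM. *Tnfrsf11a* lay between 74.4 and 89.9 CPM in the control and between 40.9 and 86.8 CPM, lowest in the group with 0 or 1 score genes, in the *Smo* cKO library. *Csf1r* went from 357 to 500 CPM and from 227 to 382 CPM.

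*Top2a* and *Mki67*, of dividing cells, were lowest in the group with 4 score genes. *Top2a* was at 171 CPM in the control cells with 0 or 1 score genes and at 35.7 CPM in those with 4, and at 162 and 61.6 CPM in the *Smo* cKO library. *Mki67* was at 57.1 and 3.46 CPM in the control and at 56.2 and 18.4 CPM in the *Smo* cKO library. Of the macrophage genes, *Lyz2* went from 731 to 77.2 CPM and from 456 to 145 CPM. *Apoe* was at 602, 548, 450 and 481 CPM in the control groups and at 425, 639, 610 and 400 CPM in the *Smo* cKO groups, without a steady order in either library. *C1qb* was at 101, 36.3, 15.05 and 17.3 CPM in the control groups and at 39.9, 78.7, 45.4 and 16.2 CPM in the *Smo* cKO groups. The median UMI number differed between the groups as well. It lay between 7391 and 11226 in the control and between 10027 and 15782 in the *Smo* cKO library. Its part in these differences was not tested beyond the thinning. The 4 groups are slices of the score that chose the cells, so their order is a description.

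**Figure D2:**
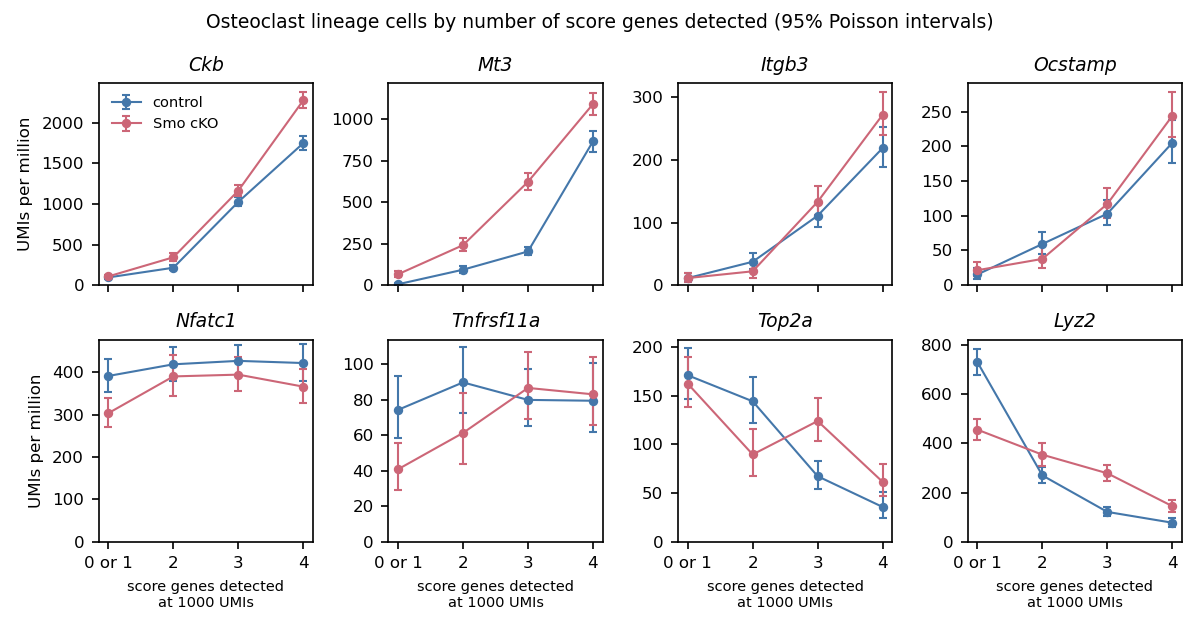
CPM of 8 genes in osteoclast lineage cells grouped by how many of *Acp5*, *Ctsk*, *Atp6v0d2* and *Mmp9* had a UMI at 1000 UMIs per cell, in the control (blue) and *Smo* cKO (red) library, with 95% Poisson intervals. *Ckb*, *Mt3*, *Itgb3* and *Ocstamp* climb from left to right, *Nfatc1* stays between 304 and 427 CPM, and *Top2a* and *Lyz2* are lowest at 4 genes.

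The comparison of the genotypes asks whether loss of *Smo* in *Sox9* lineage cells goes along with a different number or state of these cells. Osteoclast lineage cells were a smaller share of the *Smo* cKO library. They made up 4.27% (3.88% to 4.68%) of the 10057 control cells that passed the filters and 2.78% (2.46% to 3.13%) of the 9507 *Smo* cKO cells, so that the *Smo* cKO share was different by −1.49 points (−2.01 to −0.974, Newcombe interval). Of the gated myeloid cells, they were 18.1% (16.6% to 19.7%) of 2370 and 9.87% (8.77% to 11.1%) of 2674, a difference of −8.23 points (−10.2 to −6.32). With z-scores taken within each library the difference was −0.929 points of cells passing the filters and −6.01 points of gated myeloid cells. With at most 2000 detected genes these differences were −1.67 and −5.10 points. Shares move together, and the other sets differed too. *Spp1* *Gpnmb* macrophages were 14.2% and 25.2% of gated myeloid cells and *Ccl8* *Mrc1* *C1q* macrophages 20.1% and 24.1%, whereas dendritic-like cells were 21.5% and 12.2%. With 1 library each, no spread between animals is known, and a share of recovered cells does not give a number of cells in the callus.

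**Figure D3:**
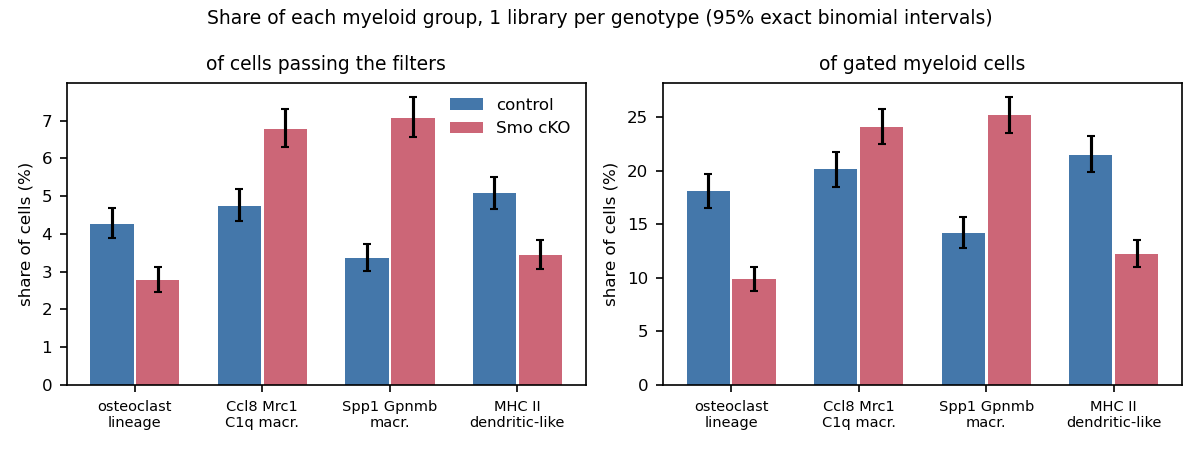
Shares (%) of osteoclast lineage cells, 2 macrophage sets and dendritic-like cells among cells passing the filters (left) and gated myeloid cells (right) in the control (blue) and *Smo* cKO (red) library, with 95% exact binomial intervals. Osteoclast lineage cells are at 4.27% and 2.78% on the left and at 18.1% and 9.87% on the right.

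Of 2388 genes at 50 CPM in members of at least 1 library, 37 (1.55%) were 2-fold or more above control and 3 (0.126%) as far below it, and the log2 ratio of the median gene was 0.052. Without the 8% of cells with the highest doublet scores, 16 genes were above control to that extent and 6 below. With cells limited to the study's 2000 detected genes and members chosen again, which left 203 and 121 of them, 156 genes were above and 47 below. Of the 74 osteoclast genes, 49 reached that level, and none was 2-fold higher or lower. Their median log2 ratio was 0.034, with a range of −0.46 to 0.49, and together they were at 14995 CPM (control) and 15348 CPM (*Smo* cKO), a log2 ratio of 0.034 (0.017 to 0.050). This small ratio turned to −0.018 when scaled by the median gene and to −0.17 with at most 2000 detected genes. *Car2* had the highest ratio (0.49, interval 0.25 to 0.73) and *Dock5*, a regulator of podosomes, the lowest (−0.46, −0.78 to −0.15). *Nfatc1* had a log2 ratio of −0.20 (−0.31 to −0.096), *Csf1r* −0.39 (−0.50 to −0.28), *Itgb3* 0.34 (0.14 to 0.55), *Ocstamp* 0.24 (0.036 to 0.45) and *Dcstamp* 0.27 (0.021 to 0.51). With at most 2000 detected genes, *Nfatc1* was at 394 and 179 CPM (−1.14, −1.49 to −0.80), more than 2-fold lower, and *Itgb3*, *Ocstamp* and *Dcstamp* turned to −1.70, −1.15 and −0.37. By group, the summed log2 ratio was 0.17 (0.093 to 0.24) for fusion, 0.070 (0.049 to 0.092) for acid secretion, 0.00 (−0.049 to 0.049) for attachment, −0.12 (−0.18 to −0.056) for signalling and −0.059 (−0.10 to −0.016) for transcription. Energy genes were at 0.066 (0.047 to 0.085) and the protease list at 0.16 (0.13 to 0.19). The proliferation genes summed to 1382 and 1595 CPM, a log2 ratio of 0.21 (0.15 to 0.26), with none of 6 at 50 CPM beyond 2-fold. It was −0.080 with at most 2000 detected genes.

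Interferon-stimulated genes made up 6 of the 37 genes above control. Of the 20 listed genes, 3 (*Bst2*, *Ifitm3* and *Ifi27l2a*) were at 50 CPM in both libraries and were above control by 2-fold or more. The other 3, *Isg15* and *Rtp4* among them, reached 50 CPM only in the *Smo* cKO library, so that the minimum itself favoured a higher ratio. The share of all genes above control, under the same minimum, was 1.55%. With no minimum, the CPM of each of the 20 was above its control value. The list summed to 676 CPM (control) and 2347 CPM (*Smo* cKO), a log2 ratio of 1.80 (1.73 to 1.86). *Isg15*, a ubiquitin-like protein of the interferon response, had 48 and 486 UMIs (11.5 and 138 CPM, log2 ratio 3.58, interval 3.15 to 4.03). *Ifi27l2a* was at 154 and 722 CPM (2.23), *Rtp4* at 21.6 and 91.4 CPM (2.08), *Bst2*, tetherin, at 78.9 and 223 CPM (interval 1.31 to 1.69) and *Ifitm3* at 350 and 924 CPM (1.40). *Rnf213*, an interferon-responsive ubiquitin ligase outside the list, was at 13.7 and 60.0 CPM (2.13), and also reached 50 CPM only in the *Smo* cKO library. *Isg15* lies on chromosome 4 from 156199424 to 156200818. *Irf7*, below 50 CPM, had 15 and 170 UMIs. The level of the list was lower in members than in the other sets, whose sums were 2723 and 7343 CPM in *Ccl8* *Mrc1* *C1q* macrophages, 1299 and 4170 CPM in *Spp1* *Gpnmb* macrophages and 2179 and 5790 CPM in dendritic-like cells, with log2 ratios of 1.43, 1.68 and 1.41. The higher level was thus seen in all 4 sets. In connective tissue cells, *Isg15* was at 12.9 and 153 CPM, and at 1000 UMIs it was found in 1.58% and 10.5% of them, beside 1.17% (0.381% to 2.71%) and 11.4% (7.83% to 15.9%) of members. The part of free RNA in these shares was not tested.

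Of 6 listed cytokine and inflammatory genes at 50 CPM, 3 were at least 2-fold higher, *Ccl2* (115 and 453 CPM, log2 ratio 1.98), *Cxcl2* (132 and 317 CPM, 1.26) and *Ccl7* (98.1 and 205 CPM, 1.06), all of which recruit leukocytes. Over all genes at that level, 1.55% were as far above control. *Ccl2* had a ratio of 0.71, below 2-fold, with a stricter limit on collagen transcripts, described next, and of 0.70 without the 8% of cells with the highest doublet scores. *Ccl9* was at 1024 and 1565 CPM (0.61, 0.55 to 0.67). The list summed to 2095 and 3574 CPM, a log2 ratio of 0.77 (0.73 to 0.81), and its ratio was 0.16 and 0.51 in the macrophage sets and 0.78 in dendritic-like cells. In members it was 0.61 with that limit and 0.57 without the highest doublet scores. The connective tissue markers were also higher in *Smo* cKO members, at 1564 and 2424 CPM. In the other sets they did not follow the cytokine list. Their log2 ratios were −0.052 and 0.00 in the macrophage sets and 0.080 in dendritic-like cells. *Spp1*, osteopontin, which the choice used for another set, was at 246 and 542 CPM (1.14).

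Other genes above control by 2-fold or more included *Tagln*, *Acta2*, *Aspn* and *Cxcl5*, which are on no list. Of these, *Tagln* and *Cxcl5* reached 50 CPM only in the *Smo* cKO library, so that the minimum itself favoured a higher ratio. *Tagln* (21.2 and 82.1 CPM, log2 ratio 1.96) and *Acta2* (67.1 and 217 CPM, 1.70) encode smooth muscle cytoskeletal proteins, *Aspn* (56.7 and 168 CPM, 1.56) a matrix proteoglycan and *Cxcl5* (27.7 and 90.6 CPM, 1.71) a chemokine. *Timp1*, a protease inhibitor on the protease list, was at 134 and 348 CPM (1.38). *Plac8*, the only monocyte marker at 50 CPM, and there only in the *Smo* cKO library, was at 20.4 and 64.0 CPM (1.65), against 154 and 155 CPM in the pooled sets. The 6 monocyte markers summed to a log2 ratio of 1.54 (1.22 to 1.87), with *Ly6c2* and *Ccr2* at 0.481 to 2.55 CPM, and their part in the other differences was not tested. Of the 9 connective tissue markers, 7 reached 50 CPM and 0 of these were 2-fold above or below control, with a highest log2 ratio of 0.75. The list had a summed log2 ratio of 0.63 (0.59 to 0.68) in members, against −0.052, 0.00 and 0.080 in the 3 other sets. In connective tissue cells, *Acta2* was at 665 and 935 CPM and *Aspn* at 1033 and 1614 CPM. Collagen transcripts made up 0.5% or more of UMIs in 24 control members (5.59%) and 27 *Smo* cKO members (10.2%). With the collagen limit at 0.5% and members chosen again (404 and 237), the ratio of the connective tissue list was −0.069, the number of genes above control by 2-fold was 18 in place of 37, and *Ccl2* had a ratio of 0.71 in place of 1.98, *Tagln* 1.40, *Acta2* 1.07, *Aspn* 0.83, *Cxcl5* 0.54 and *Timp1* 0.53, while the interferon-stimulated list kept a ratio of 1.77. *Tagln* was at 0.43 and *Acta2* at 0.96 without the highest doublet scores, and at 0.43 and 0.92 with at most 2000 detected genes, all below 2-fold. *Ccl2* itself was at 1371 and 2375 CPM in connective tissue cells.

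A single cell held the most extreme value. *Ccl21a*, a lymphatic chemokine, had the highest ratio of all (7 and 307 UMIs, log2 ratio 5.69), and 295 of the 307 UMIs (96.1%) came from 1 cell. *Ccl21a* also reached 50 CPM only in the *Smo* cKO library. *Mt3* was 0.97 higher on the log2 scale (0.86 to 1.08), with 1109 UMIs in 107 control cells and 1844 UMIs in 111 *Smo* cKO cells, and the 5 highest cells gave 29.1% and 29.6% of these.

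The 3 genes at least 2-fold lower were *Gdpd3*, *Fxyd2* and *Abca1*, against 47 genes with at most 2000 detected genes. All 3 reached 50 CPM only in the control, so that the minimum itself favoured a lower ratio. At a 100 CPM minimum the count was 0. *Gdpd3*, a lysophospholipase D, had 317 UMIs in 177 control members and 91 UMIs in 65 *Smo* cKO members (76.2 and 25.8 CPM, log2 ratio −1.56, interval −1.92 to −1.22), and it was also lower in the pooled sets (190 and 47.0 CPM). *Fxyd2*, a regulator of the sodium pump, was at 52.7 and 24.3 CPM (−1.11), and *Abca1*, the cholesterol exporter, at 50.3 and 24.1 CPM (−1.06). With at most 2000 detected genes, *Fxyd2* had a ratio of −0.66 and *Abca1* of −0.065 (−0.52 to 0.38). *Abca1* was at −0.63 with z-scores within each library and at −0.70 with equal weight per cell. All of these were short of 2-fold. The next lowest of the ranked genes were *Hist1h2ap* (−0.91), *Babam2* (−0.87), *Jarid2* (−0.77), *Cirbp* (−0.71), *Cxcr4* (−0.69), *Pltp* (−0.68) and *Tsc22d1* (−0.66). *Hist1h2ap* belongs to a histone family of near-identical copies among which reads can be split. *Pdgfb* had a ratio of −0.64 (−0.90 to −0.39).

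**Figure D4:**
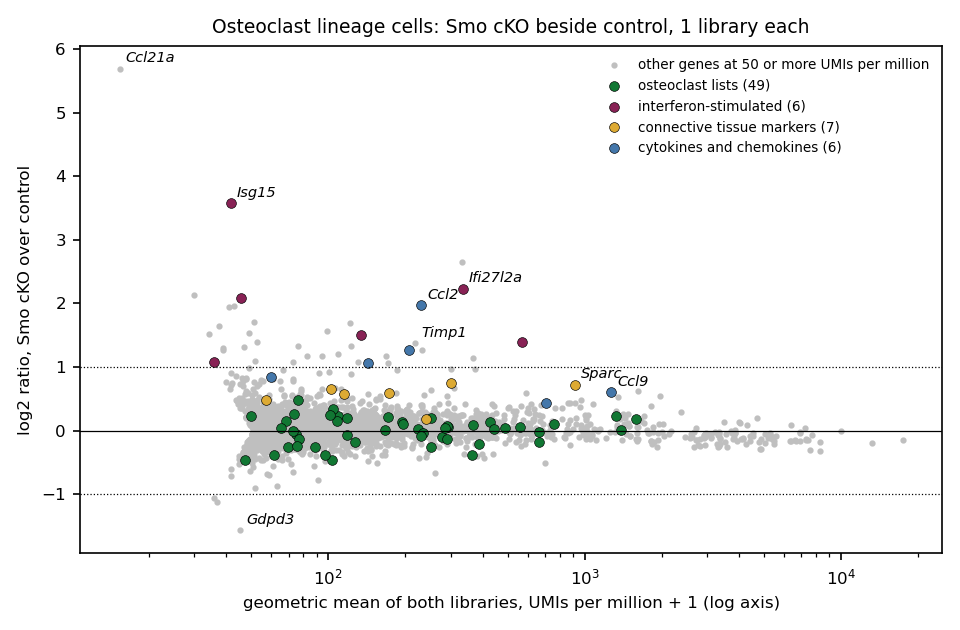
Log2 ratio of *Smo* cKO over control (y) against the geometric mean of both libraries in CPM plus 1 (x, log axis) for the 2388 genes at 50 CPM in osteoclast lineage cells; dotted lines mark 2-fold, and counts in the key are genes plotted. The 49 osteoclast genes lie between −0.46 and 0.49, and the 6 interferon-stimulated genes lie above 1.

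**Figure D5:**
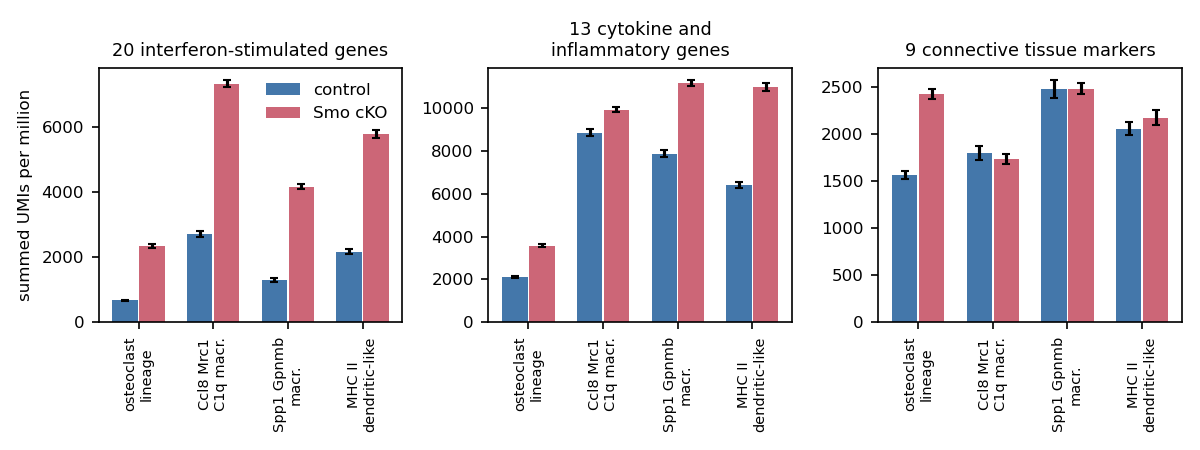
Summed CPM of 20 interferon-stimulated genes, 13 cytokine and inflammatory genes and 9 connective tissue markers in 4 sets of myeloid cells of the control (blue) and *Smo* cKO (red) library, with 95% Poisson intervals. Interferon-stimulated genes are higher in the *Smo* cKO library in all 4 sets, and the connective tissue markers are at 1564 and 2424 CPM in osteoclast lineage cells.

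The ligands of the lineage were measured in the connective tissue cells. *Tnfsf11*, RANKL, was at 18.8 and 17.3 CPM (log2 ratio −0.12, −0.30 to 0.049), so that no difference was detectable at this depth. Its decoy receptor *Tnfrsf11b*, osteoprotegerin, was at 3.11 and 4.35 CPM (0.49, 0.10 to 0.87) and *Csf1* at 57.9 and 73.1 CPM (0.34, 0.25 to 0.42). *Il34*, the alternative ligand of the M-CSF receptor, was at 1.83 and 3.00 CPM (0.71, 0.23 to 1.20). In the members, *Tnfsf11* had 10 and 11 UMIs and *Csf1* 31 and 86 UMIs.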

How the data were processed

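Cells from calluses of 3 animals per genotype were processed on the 10x Genomics platform and the authors aligned the reads with Cell Ranger 3.0.2. The deposited matrices hold UMI counts per gene and barcode, with no normalization. Cells with at least 200 genes and under 10% mitochondrial UMIs were kept. The upper limit of 2000 genes that the study's methods state was not applied and serves as an alternative. Gated cells had at least 3 UMIs of *Tyrobp* and *Fcer1g*, under 2% of UMIs on 3 collagen genes and none of *Siglech*, *Cd3g* and *Nkg7*. Per gene, ln(1 + 10000 × UMI/total) was z-scored over gated cells of both libraries and averaged by set, and each cell took its highest set if over 0.3. UMIs were summed over members and divided by their total UMIs to give CPM. Poisson ratio, Clopper-Pearson and Newcombe intervals at 95% were computed with Python 3.11.15, numpy 2.4.6 and scipy 1.17.1. A gene was called at a ratio of 2 if at 50 CPM in at least 1 library. Scrublet (scanpy 1.11.5) called 1 of 10380 control and 1 of 9960 *Smo* cKO cells, too few for a working threshold, so no doublet was removed.

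The text names listed genes, the 15 leading genes over the pooled sets, and the 10 highest and 10 lowest genotype ratios (10 CPM added for ranking; sex, mitochondrial, ribosomal, hemoglobin, immunoglobulin and model genes left out). The members and lists were chosen with earlier results of these data known. Gene models are GENCODE vM21 and promoters RefSeq on GRCm38.p6. A few listed genes are not reported here.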

Additional observations from a re-analysis of the deposited data

Results flagged for a closer look

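*Spp1* *Gpnmb* macrophages differed between the libraries in the opposite direction to osteoclast lineage cells. Their share of gated myeloid cells was 10.9 percentage points higher in the *Smo* cKO library (interval 8.77 to 13.1), whereas for osteoclast lineage cells the difference was −8.23 points. With 1 library per genotype this difference was not tested, and shares of one total are not independent.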

How the results depend on the processing

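No paired analysis was possible because each genotype has 1 library. The share differences kept their direction in every alternative run. For cells passing the filters, the difference was −0.962 points with a score over 1 and −0.929 with z-scores within each library. For gated myeloid cells it was −5.10 with at most 2000 genes, −5.49 with a score over 1 and −6.01 with z-scores within each library. Genes at least 2-fold higher numbered 156 with at most 2000 genes, 18 with collagens under 0.5%, 16 without the 8% of cells with the highest Scrublet score (an alternative chosen after seeing the data), 21 with equal weight per cell, 104 at a 20 CPM minimum, 22 at 100 CPM and 1158 at 1 UMI in each library. Genes at least 2-fold lower numbered 47 with at most 2000 genes, 6 without high Scrublet scores, 0 at 100 CPM and 505 at 1 UMI. The osteoclast gene ratio was −0.17 with at most 2000 genes, −0.016 with z-scores within each library, −0.018 when scaled by the median gene, 0.067 with at most 6000 genes, 0.088 with collagens under 0.5%, 0.062 without shared barcodes, 0.059 with equal weight per cell, and 0.12 without high Scrublet scores. The interferon-stimulated ratio was 2.23 with at most 2000 genes and 1.73 without high Scrublet scores. The proliferation ratio was −0.080 with at most 2000 genes, 0.31 with a score over 0.6, 0.43 over 1, 0.26 with at least 3 score genes, 0.28 with z-scores within each library, 0.13 without high Scrublet scores and 0.15 with equal weight. The connective tissue ratio was −0.069 with collagens under 0.5% and −0.085 without high Scrublet scores. With at most 2000 genes, where members chosen again number 203 and 121, the ratios were −1.15 for *Ocstamp*, −0.37 for *Dcstamp*, −1.70 for *Itgb3*, −0.70 for *Oscar* and −0.83 for *Birc5*. The cause of each change was not tested. Leaving out cells that Scrublet called gave no alternative, as none was a member. Of 348 other values over single genes and lists, 255 stayed within the counting interval of the reported value, 86 moved beyond it and 7 reversed. Having 1 library per genotype limits every genotype difference to a description of these libraries.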
